A study of Mus musculus with 8 samples.

Results

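The genes described here are the tumour suppressor p53, encoded by Trp53, and 31 genes known as its targets or partners, 32 in all, measured in mouse embryonic stem cells (ESCs) whose WDR5 was replaced by a human transgene. A gene was followed through the probe sets of the array whose only gene symbol in the probe annotation was that gene. Of the 32 genes, 30 had such a probe set, 55 probe sets in all out of 34945 with 1 symbol, and 27 passed the expression minimum and were tested among 11940 genes. No probe set in the annotation used here carried Trp53 or Bax as its only symbol, so these genes were not analysed here. Fas, Dram1 and Cd80 stayed under the minimum of 50 on the linear scale (5.64 on the log2 scale) in every array, with highest log2 values of 4.28, 5.13 and 5.11.

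The series asked what V6.5 mouse ESCs express when they depend on wild-type (WT) human WDR5 or on F266A, a point mutant that does not bind RNA. WDR5 is a core subunit of the MLL complexes that trimethylate lysine 4 of histone H3. Total RNA was hybridized to 8 Affymetrix mouse expression arrays in 4 groups of 2, described by the submitters as biological duplicates. The groups were the WT line with doxycycline (WT +dox) or without it (WT -dox) and the F266A line likewise (F266A +dox, F266A -dox). Cells of every group had been infected with a lentivirus that constitutively expresses an shRNA against mouse Wdr5 and carries the human WDR5 under a doxycycline-inducible promoter, and were sorted for the green fluorescent protein the virus encodes. The +dox groups were kept in 2 µg/mL doxycycline and the -dox groups were grown without it, which shuts off the transgene. One infected population per construct was used, so the mutation and the cell line cannot be told apart, and the study's protein blots showed less F266A than WT protein at equal transgene RNA. None of the 8 arrays held ESCs without the shRNA or without the inducible transgene. Loss of the transgene and removal of doxycycline itself therefore cannot be told apart.

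The targeted gene was detected in all 8 arrays. The brighter Wdr5 probe set gave log2 values of 9.68 and 9.70 with WT induced, 10.62 and 10.57 with WT withdrawn, 9.83 and 9.77 with F266A induced and 10.30 and 10.39 with F266A withdrawn. It was higher without doxycycline in both lines, and with the shRNA in all groups there was no sample in which the knockdown itself could be measured. Whether the probe sets also detect the human transgene was not settled. All 10 ESC markers examined, among them Pou5f1, Nanog and Sox2, were above the minimum in all groups, and of 8 fibroblast markers only Col1a2 passed it in any array. Of the endoderm, trophoblast, neural, mesoderm and blood or endothelial markers, 3 of 6, 3 of 5, 3 of 4, 2 of 4 and 2 of 4 passed it in at least 1 array. The summed linear level of the ESC markers was 59084 to 59579 with WT induced, 55701 to 56726 with WT withdrawn, 53521 to 53716 with F266A induced and 45383 to 47825 with F266A withdrawn. The other sums moved in both directions between WT +dox and F266A -dox. That of the endoderm markers was 126 to 144 in WT +dox and 227 to 230 in F266A -dox, with Dab2 and Foxa2 called higher (1.28 and 0.77 on the log2 scale) and Gata6 not called (-0.12, limma adjusted p = 0.429). The trophoblast sum was 867 to 887 in WT +dox and 697 to 744 in F266A -dox, and the blood or endothelial sum 178 to 207 and 137 to 140. The genes in these sums were divided. Tfap2c was called lower (-0.77) but Cdx2 and Eomes higher (0.99 and 0.37), and Pecam1 lower (-1.12) but Kdr higher (0.29). Among the neural markers Sox1 was called lower (-0.64) and Pax6 and Tubb3 higher (0.51 and 0.44). The neural sum was 307 to 326 and 358 to 413, the mesoderm sum 151 to 152 and 190 to 223, and the fibroblast sum 52 to 59 and 71 to 104. The part that these shifts in cell state play in the values below was not tested, and in bulk RNA fewer cells of a type and less RNA per cell cannot be told apart. An 18S control probe set ranged from 11.25 to 11.42 in WT +dox and from 10.12 to 10.27 in F266A -dox, and its part was not tested either.

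In unstressed cells p53 is kept low because MDM2, a ubiquitin ligase whose own gene p53 activates, marks it for degradation. When DNA is damaged or other stresses interrupt this loop, p53 binds DNA as a tetramer and raises genes that halt the cell cycle, repair DNA, supply nucleotides or kill the cell. Mouse ESCs express p53 abundantly, and it is known there for lowering Nanog and favouring differentiation after damage.

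Promoter sequence was examined because p53 recognizes a DNA element made of a pair of decamer half-sites, and the genes shown are the 4 that carried such a decamer among the 10 members lowest in WT -dox, a pattern described further on. RefSeq promoter windows (GRCm38.p6) of 300 bases, 250 before and 50 after a gene's start, were available for 24 of the 32 genes, 30 windows in all. The decamer of the p53 consensus half-site, which reads the same on both strands, was present in 11 of these windows (36.7%) and in 2745 of all 32851 windows (8.36%). A full site, with the half-sites overlapping nowhere and at most 13 bases apart, was found in 24 windows of the whole table (0.0731%), among the members only in 1 of the 2 Cdkn1a windows. The members were chosen as known p53 targets, so these shares are a description only, and a match is a stretch of letters, not evidence of binding. Below, the 250 bases before the start are given from 5′ to 3′ on the strand of the gene with half-sites in capitals.
Cdkn1a, chr17:29090729-29090978, plus strand: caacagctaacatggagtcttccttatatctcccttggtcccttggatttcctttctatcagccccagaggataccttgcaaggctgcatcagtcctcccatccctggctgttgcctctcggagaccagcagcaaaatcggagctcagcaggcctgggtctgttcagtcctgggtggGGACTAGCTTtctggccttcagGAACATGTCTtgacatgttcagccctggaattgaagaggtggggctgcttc
Mdm2, chr10:117710759-117711008, minus strand: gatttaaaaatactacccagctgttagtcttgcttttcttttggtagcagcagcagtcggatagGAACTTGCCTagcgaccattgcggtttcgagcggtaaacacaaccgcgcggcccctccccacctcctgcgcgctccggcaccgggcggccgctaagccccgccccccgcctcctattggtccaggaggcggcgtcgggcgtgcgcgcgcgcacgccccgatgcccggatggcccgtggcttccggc
Ccng1, chr11:40755287-40755536, minus strand: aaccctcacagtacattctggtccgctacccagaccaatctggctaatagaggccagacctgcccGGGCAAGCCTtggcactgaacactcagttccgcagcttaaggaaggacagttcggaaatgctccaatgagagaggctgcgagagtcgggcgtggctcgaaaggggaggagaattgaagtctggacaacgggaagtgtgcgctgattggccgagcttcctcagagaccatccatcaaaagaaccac
Polk, chr13:96519188-96519437, minus strand: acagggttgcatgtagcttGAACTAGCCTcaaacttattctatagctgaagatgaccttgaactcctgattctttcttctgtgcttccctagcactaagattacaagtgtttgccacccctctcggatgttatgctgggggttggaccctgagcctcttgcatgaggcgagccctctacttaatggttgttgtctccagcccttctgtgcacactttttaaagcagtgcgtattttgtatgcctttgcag
In Cdkn1a the half-sites began 73 and 51 bases before the start and were 12 bases apart. The half-site of Mdm2 began 186 bases before its start, that of Ccng1 185 and that of Polk, in 1 of its 2 windows, 231. This Polk window belongs to a start inside the gene, whose 5′ end is at position 96542579. The window at that 5′ end held no half-site. Of the 10 members lowest in WT -dox, 9 had a window, and the windows of Phlda3, Plk2, Btg2, Apaf1 and Ercc5 held no half-site in these 300 bases. The half-site was not particular to these members. It occurred in 10 of all 24 members with a window. The carriers not shown were Sesn1, Aen, Ei24 and Gadd45a, which were not lowest in WT -dox, and Trp53 and Bax, which were not analysed.

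The groups were compared in 6 pairs and by the interaction of line and withdrawal, with limma fitted to all tested genes and a gene called at an adjusted p under 0.05. Values are deposited log2 intensities, averaged over the probe sets of a gene, and differences are on that log2 scale, given ± the standard error (SE) of the fit. Withdrawal of WT WDR5 was accompanied by a lower level of 11 of the 27 tested members, led by Rrm2b, Cdkn1a, Ephx1 and Ddb2, and a higher level of 3, Sertad1, Rprm and Gadd45a. Of all tested genes, 15.4% were called lower and 16.1% higher in that comparison. The median difference of the members was -0.20, against 0.0037 over all genes.

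In the F266A line, withdrawal was followed by fewer calls. Rrm2b, Ephx1, Ddb2, Mdm2, Pmaip1 and Ei24 were lower and Gadd45a was higher, 6 and 1 of 27, where 10.6% and 8.94% of all genes were called. The members' median was -0.16. Without the first F266A +dox array 4 of these 7 calls were made, and with a trended and robust variance prior 12 members were called, these 7 among them.

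With doxycycline in both lines, 9 members were higher in F266A than in WT and 4 were lower. Perp, Plk2, Rprm, Btg2, Phlda3, Sertad1, Ercc5, Apaf1 and Pmaip1 were higher, and Rrm2b, Ddb2, Eda2r and Ephx1 were lower. All genes were called higher in 15.9% and lower in 12.5%. The median difference of the members was 0.16.

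Without doxycycline the lines again differed in 14 members, with 10 higher in F266A and 4 lower, while 14% and 13.4% of all genes were called in these directions. The higher members were Plk2, Perp, Cdkn1a, Btg2, Phlda3, Ercc5, Rprm, Ccng1, Apaf1 and Aen. The lower ones were Rrm2b, Ephx1, Sesn1 and Ddb2. The members' median was 0.19.

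The induced mutant and the withdrawn wild type, which differ in both line and doxycycline, gave the most one-sided comparison of the members. F266A +dox was higher in 14 of 27 members and lower in none, where 9.09% of all genes were called higher and 4.41% lower. The members' median was 0.26, against -0.0055 over all genes. In this comparison all genes gave fewer calls than in any of the other 5 pairs, 1085 higher and 526 lower. Of the 14 member calls, 9 were made without the first WT -dox array and 9 without the first F266A +dox array. Negative differences occurred in 4 of the 27 members, Gadd45a, Eda2r, Sesn1 and Sertad1 at -0.22, -0.20, -0.18 and -0.12, and these did not pass the test.

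F266A -dox against WT +dox, in which both line and doxycycline changed, gave 8 members higher and 9 lower, against 25.9% and 25% of all genes. The members' median was 0.02, so they divided almost evenly. Without the second WT +dox array 11 members were called, 10 of them among these 17.

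**Figure D1:**
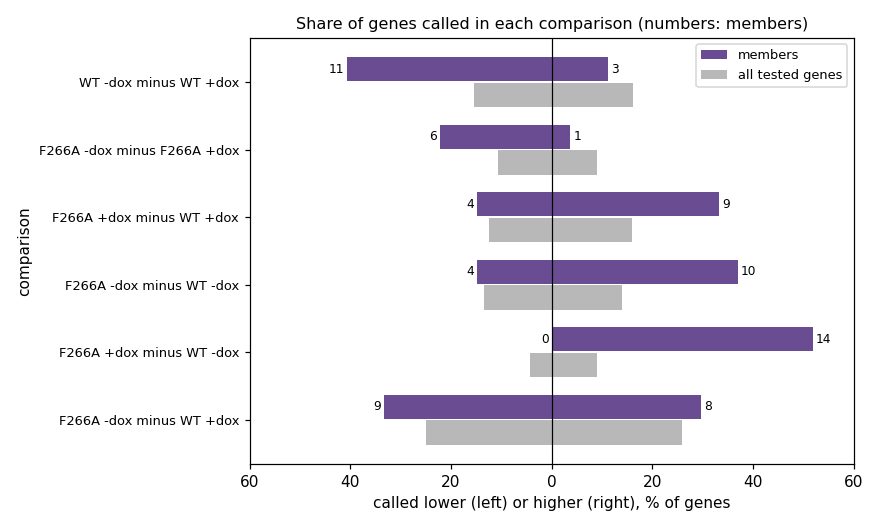
Share of genes called higher (right) or lower (left) by limma at an adjusted p under 0.05 in each of the 6 pairwise comparisons, in percent of the genes, for the 27 tested members (purple, with the number of members at the bar end) and for all 11940 tested genes (grey). The longest purple bar is the 14 members higher in F266A +dox than in WT -dox, with none on the other side.

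Among the genes that set the level of p53 itself, Mdm2 followed doxycycline in both lines. Mdm2 read 9.62 and 9.73 in the WT line and 9.91 and 9.65 in the F266A line with doxycycline, and 9.20 and 9.17 in the WT line and 9.31 and 9.45 in the F266A line without it. In each line the -dox pair lay below the +dox pair, and both WT -dox arrays were the lowest of the 8. Withdrawal lowered it by 1.40-fold in the WT line (log2 difference -0.49 ± 0.095, limma adjusted p = 0.00419). In the F266A line the decrease was 1.32-fold (-0.40 ± 0.095, limma adjusted p = 0.0184). The withdrawal differences of the lines were 0.09 ± 0.13 apart, with a 95% interval from -0.21 to 0.39, which does not show them to be equal. The brighter of its 2 passing probe sets gave -0.23 in the F266A line, which was not called when taken alone, and the dimmer one gave -0.57.

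The remaining feedback genes moved less. Trp53inp1, a cofactor that promotes p53-dependent death, had group means from 9.04 in F266A -dox to 9.34 in WT +dox, and on these averages only that largest gap was called (-0.30 ± 0.082, limma adjusted p = 0.0129). Its dimmer probe set read 5.66 to 6.33. The brighter one was lowest in WT -dox, at 12.20 and 12.29 against 12.31 and 12.35 in F266A -dox. With the brighter one alone, withdrawal of WT (-0.33, limma adjusted p = 0.00563) and F266A +dox minus WT -dox (0.31, limma adjusted p = 0.0176) were also called. Zmat3, an RNA-binding zinc finger protein, was called only between F266A +dox and WT -dox (0.28 ± 0.077, limma adjusted p = 0.0422). Both WT -dox arrays of Zmat3, at 10.15 and 10.13, were the lowest of the 8.

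Among the arrest genes, withdrawal of WT lowered Cdkn1a most. It encodes p21, the cyclin-dependent kinase inhibitor through which p53 stops cells in G1. Cdkn1a stood at 9.89 and 9.83 with WT induced, at 9.08 and 9.09 with WT withdrawn, at 9.84 and 9.78 with F266A induced and at 9.68 and 9.88 with F266A withdrawn. Both WT -dox arrays stood apart from the other 6, whose values overlapped between groups. Withdrawal lowered Cdkn1a by 1.71-fold in the WT line (-0.78 ± 0.079, limma adjusted p = 0.00014). In the F266A line the difference was -0.03 ± 0.079, with a 95% interval from -0.21 to 0.15. The interaction, which tests whether the lines differ in their response, was 0.75 ± 0.11 (limma adjusted p = 0.008), the only interaction called among the 27 members, where 2.21% of all genes were called in this direction and 2.94% in the other. Each of its 2 probe sets gave a similar interaction, 0.73 and 0.77.

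Ccng1 encodes cyclin G1, which recruits a phosphatase to MDM2. It measured 11.19 and 11.23 in the induced WT cells, 10.78 and 10.85 after WT withdrawal, 11.40 and 11.38 in the induced F266A cells and 11.23 and 11.24 after F266A withdrawal. The WT -dox arrays were the lowest and the F266A +dox arrays the highest. Withdrawal lowered it by 1.32-fold in the WT line (-0.40 ± 0.064, limma adjusted p = 0.00167), and the interaction of 0.24 ± 0.091 was not called (limma adjusted p = 0.163).

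Btg2, an antiproliferative gene that slows the G1 to S transition, was highest in the F266A line. It read 9.13 and 9.15 in the WT line and 9.74 and 9.67 in the F266A line with doxycycline, and 8.77 and 8.83 in the WT line and 9.34 and 9.59 in the F266A line without it. All 4 F266A arrays lay above all 4 WT arrays. It was 1.48-fold higher in F266A than in WT with doxycycline (0.56 ± 0.086, limma adjusted p = 0.00125) and 1.58-fold higher without it (0.66 ± 0.086, limma adjusted p = 0.000552). Withdrawal lowered it in the WT line by 1.26-fold (-0.34 ± 0.086, limma adjusted p = 0.0151), and its 2 probe sets gave 0.11 and 0.53 for F266A -dox minus WT +dox.

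Plk2, a polo-like kinase induced in early G1, separated the lines most among the arrest genes. It stood at 9.74 and 9.86 with WT induced, at 9.47 and 9.70 with WT withdrawn, at 10.66 and 10.59 with F266A induced and at 10.81 and 10.89 with F266A withdrawn. Every F266A array was above every WT array. The excess of the F266A line was 1.77-fold with doxycycline (0.83 ± 0.089, limma adjusted p = 0.000193) and 2.40-fold without it (1.27 ± 0.089, limma adjusted p = 2.78e-05). The difference between these, 0.44 ± 0.13, was not called (limma adjusted p = 0.0836).

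Rprm, or reprimo, whose product holds cells in G2, was lowest in WT +dox. It measured 6.53 and 6.64 in the induced WT cells, 6.99 and 7.08 after WT withdrawal, 7.31 and 7.38 in the induced F266A cells and 7.59 and 7.36 after F266A withdrawal. The 4 WT arrays lay below the 4 F266A arrays, and within WT the -dox pair was the higher. Withdrawal raised it 1.37-fold in WT (0.45 ± 0.089, limma adjusted p = 0.00437). With doxycycline it was 1.70-fold higher in F266A (0.76 ± 0.089, limma adjusted p = 0.00028).

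Gadd45a, a stress sensor that binds p21 and PCNA, ran against most members. It read 8.99 and 9.04 in the WT line and 9.28 and 9.11 in the F266A line with doxycycline, and 9.46 and 9.37 in the WT line and 9.68 and 9.58 in the F266A line without it. In each line the -dox pair was above the +dox pair. Withdrawal raised it 1.32-fold in WT (0.40 ± 0.080, limma adjusted p = 0.00482) and 1.35-fold in F266A (0.44 ± 0.080, limma adjusted p = 0.00618), and the interval of the difference between these ran from -0.22 to 0.29.

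Sertad1, a regulator of CDK4 and E2F, was lowest in WT +dox. It stood at 8.06 and 8.04 with WT induced, at 8.49 and 8.58 with WT withdrawn, at 8.48 and 8.36 with F266A induced and at 8.61 and 8.61 with F266A withdrawn. The other 3 groups lay close together above WT +dox. Withdrawal raised it 1.40-fold in WT (0.49 ± 0.070, limma adjusted p = 0.000927), and in F266A the difference was 0.19 ± 0.070 (limma adjusted p = 0.0851). Sesn1, a sestrin that restrains mTORC1, was called only where F266A -dox was compared with the WT groups, at -0.37 ± 0.11 against each (limma adjusted p = 0.0196 against WT +dox and 0.036 against WT -dox). Both calls were lost with the brightest probe set alone. The call against WT -dox was made in 4 of the 8 fits that left out 1 array, and without the second WT +dox array the difference from WT +dox was -0.23 and was not called.

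**Figure D2:**
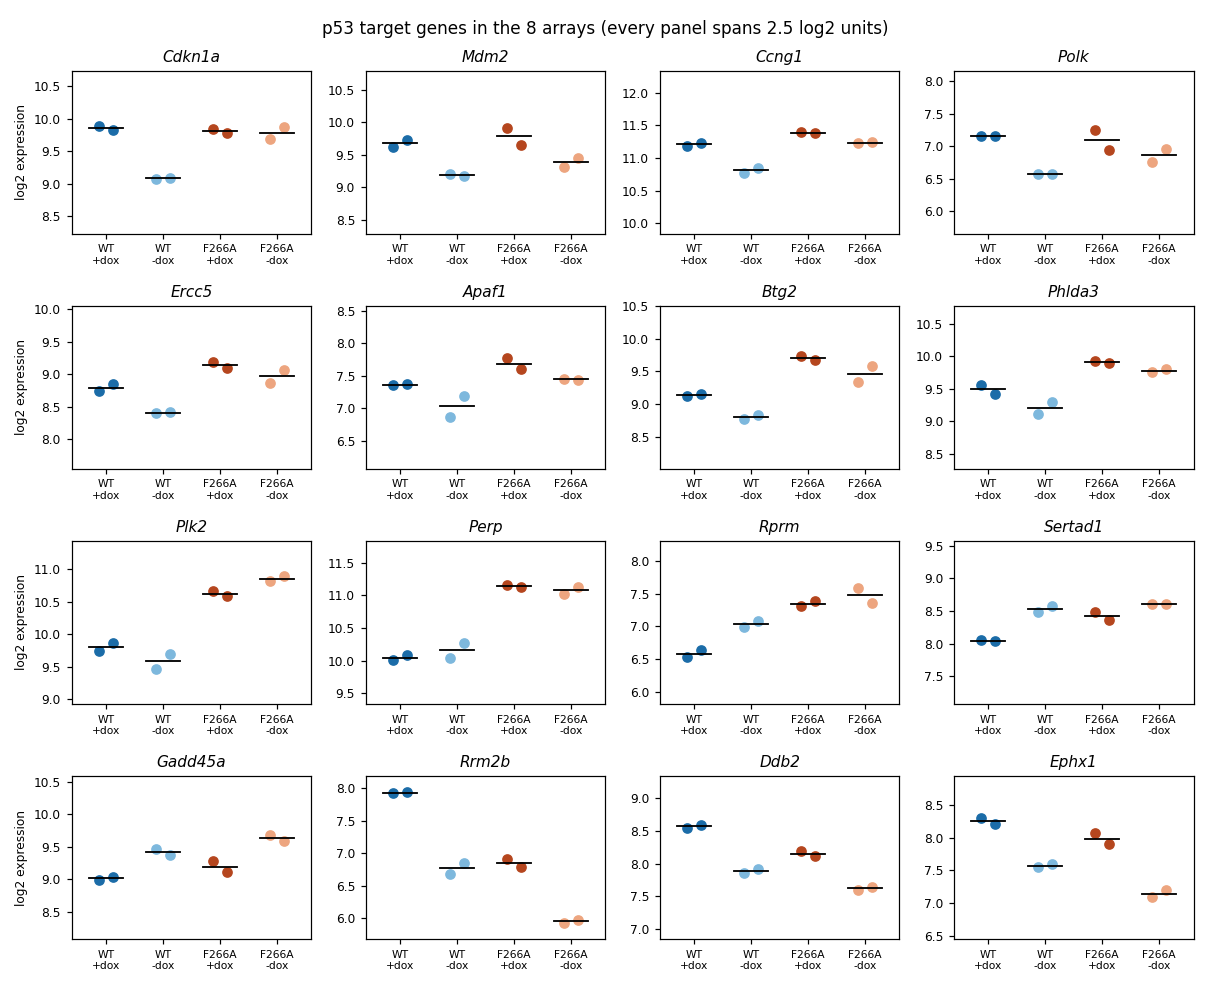
Log2 expression of 16 members in each of the 8 arrays, in 1 panel per gene, with the 2 arrays of a group as points and their mean as a line. Every panel spans 2.5 log2 units, so distances compare between panels. In Cdkn1a only WT -dox is low, in Perp and Plk2 the 2 lines separate, and in Rrm2b, Ddb2 and Ephx1 the level falls from WT +dox to F266A -dox.

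Of the 13 death genes 10 were tested, and their changes did not share a direction. The most changed was Perp, a membrane protein of desmosomes that p53 induces during apoptosis. Perp measured 10.004 and 10.08 in the induced WT cells, 10.04 and 10.26 after WT withdrawal, 11.17 and 11.12 in the induced F266A cells and 11.02 and 11.13 after F266A withdrawal. The 4 F266A arrays lay together above the 4 WT arrays, and within each line the doxycycline pairs overlapped. It was 2.15-fold higher in F266A with doxycycline (1.10 ± 0.086, limma adjusted p = 2.8e-05) and 1.89-fold higher without it (0.92 ± 0.086, limma adjusted p = 9.28e-05).

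Phlda3, which inhibits AKT at the membrane, was also higher in F266A. It read 9.56 and 9.42 in the WT line and 9.92 and 9.89 in the F266A line with doxycycline, and 9.12 and 9.30 in the WT line and 9.75 and 9.80 in the F266A line without it. All 4 groups were separate, with WT -dox lowest and F266A +dox highest. F266A exceeded WT 1.34-fold with doxycycline (0.42 ± 0.082, limma adjusted p = 0.00496) and 1.48-fold without it (0.57 ± 0.082, limma adjusted p = 0.00103).

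Apaf1, the scaffold of the apoptosome that activates caspase-9, showed the same order of groups. It stood at 7.36 and 7.37 with WT induced, at 6.87 and 7.18 with WT withdrawn, at 7.77 and 7.60 with F266A induced and at 7.45 and 7.44 with F266A withdrawn. WT -dox was lowest and F266A +dox highest, with no overlap between them and the rest. The gap between them was 1.58-fold (0.66 ± 0.10, limma adjusted p = 0.00322). These values average 2 probe sets, of which the dimmer exceeded the minimum only in the first F266A +dox array, at 5.79. The brighter gave 0.68 for this gap. The Apaf1 call against WT +dox in the induced cells, 0.32 ± 0.10 (limma adjusted p = 0.0428), was lost with the replicate block, without the expression filter and in 6 of the 8 fits that left out 1 array.

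The other death genes differed little. Bbc3 and Pmaip1 encode PUMA and NOXA, the BH3-only proteins through which p53 triggers mitochondrial apoptosis. Bbc3 was not called in any comparison, with group means from 8.63 to 8.77. Pmaip1 had means from 11.45 to 11.71 and was highest in F266A +dox, above WT +dox (0.23 ± 0.073, limma adjusted p = 0.0445) and above F266A -dox, from which it fell by 0.27 on the log2 scale (limma adjusted p = 0.0323). Both Pmaip1 calls were lost without the expression filter. The call against WT +dox was made in only 6 of 11 alternatives of method, and with 1 array left out that difference ran from 0.18 to 0.28. Eda2r, a death receptor of the TNF receptor family, was lower in F266A +dox and F266A -dox than in WT +dox, by the same log2 difference of -0.40 ± 0.075 in each (limma adjusted p = 0.00417 and 0.00186). Ei24, a protein of the endoplasmic reticulum, differed at most by -0.26 ± 0.067, between F266A -dox and WT +dox (limma adjusted p = 0.00861).

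Aen, a nuclease, was called higher in F266A -dox than in WT +dox (0.31 ± 0.077, limma adjusted p = 0.00782) and WT -dox (0.30 ± 0.077, limma adjusted p = 0.0192), but its 4 probe sets disagreed. For F266A -dox minus WT +dox they ran from -0.18 to 0.78, and the brightest gave 0.16. Pidd1, the platform of the PIDDosome, and Tnfrsf10b, the mouse receptor for TRAIL, were not called in any comparison. Tnfrsf10b passed the minimum in only 1 WT +dox array, at 5.70, and all 4 of its group means were under it.

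The repair and nucleotide genes held the widest range of the members. Rrm2b encodes the p53-inducible small subunit of ribonucleotide reductase, which supplies deoxynucleotides for repair. It measured 7.92 and 7.94 in the induced WT cells, 6.68 and 6.85 after WT withdrawal, 6.91 and 6.79 in the induced F266A cells and 5.93 and 5.98 after F266A withdrawal. WT +dox was highest, F266A -dox lowest, and WT -dox and F266A +dox overlapped between them. Withdrawal lowered it 2.24-fold in WT (-1.16 ± 0.079, limma adjusted p = 1.88e-05) and 1.86-fold in F266A (-0.90 ± 0.079, limma adjusted p = 0.000282). From WT +dox to F266A -dox it fell by 1.98 on the log2 scale (SE 0.079, limma adjusted p = 2.57e-07), the largest difference of any member. These values average 2 probe sets, of which the dimmer exceeded the minimum only in WT +dox, at 6.55 and 6.42, and read 4.67 and 4.68 in F266A -dox. The brighter, above the minimum in every array, gave -1.15 for withdrawal in WT, -1.03 for withdrawal in F266A and -2.14 from WT +dox to F266A -dox when taken alone.

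Ddb2, the damage sensor that starts nucleotide excision repair of UV lesions, had the same order of groups. It read 8.55 and 8.59 in the WT line and 8.19 and 8.11 in the F266A line with doxycycline, and 7.86 and 7.92 in the WT line and 7.59 and 7.65 in the F266A line without it. The 4 groups did not overlap. Withdrawal lowered it 1.61-fold in WT (-0.68 ± 0.067, limma adjusted p = 0.000118) and 1.44-fold in F266A (-0.53 ± 0.067, limma adjusted p = 0.00129). F266A was below WT 1.34-fold with doxycycline (-0.42 ± 0.067, limma adjusted p = 0.00154).

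Polk, a DNA polymerase that copies past damaged bases, was lowest in WT -dox. It stood at 7.16 and 7.15 with WT induced, at 6.57 and 6.58 with WT withdrawn, at 7.25 and 6.94 with F266A induced and at 6.76 and 6.96 with F266A withdrawn. The F266A groups overlapped each other. Withdrawal lowered it to 0.668 of its level in WT (-0.58 ± 0.10, limma adjusted p = 0.00288), and in F266A the difference was -0.23 ± 0.10 (limma adjusted p = 0.155), without a called interaction (0.35 ± 0.15, limma adjusted p = 0.214). These values average 2 probe sets, of which the dimmer exceeded the minimum only in the first F266A +dox array, at 5.70. The brighter gave -0.68 for withdrawal in WT and -0.24 in F266A. Taken alone, it was called higher in F266A -dox than in WT -dox (0.32, limma adjusted p = 0.0284).

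Ercc5, the nuclease that cuts 3′ of a lesion in excision repair, ran opposite to Ddb2 between the lines. It measured 8.74 and 8.85 in the induced WT cells, 8.41 and 8.42 after WT withdrawal, 9.19 and 9.09 in the induced F266A cells and 8.87 and 9.06 after F266A withdrawal. All F266A arrays were above all WT arrays. F266A exceeded WT 1.27-fold with doxycycline (0.35 ± 0.083, limma adjusted p = 0.0124) and 1.47-fold without it (0.56 ± 0.083, limma adjusted p = 0.00116). Xpc, the partner of DDB2 in lesion recognition, was not called in any comparison, and its largest difference was -0.35 ± 0.14, for withdrawal in F266A (limma adjusted p = 0.0985).

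The 1 tested gene of the metabolic and immune group was Ephx1, the microsomal epoxide hydrolase that detoxifies reactive epoxides. It read 8.31 and 8.22 in the WT line and 8.07 and 7.90 in the F266A line with doxycycline, and 7.55 and 7.59 in the WT line and 7.09 and 7.20 in the F266A line without it. The 4 groups did not overlap, and the -dox pair was the lower in each line. Withdrawal lowered it 1.61-fold in WT (-0.69 ± 0.080, limma adjusted p = 0.000288) and 1.80-fold in F266A (-0.85 ± 0.080, limma adjusted p = 0.00034). From WT +dox to F266A -dox it fell 2.17-fold (-1.12 ± 0.080, limma adjusted p = 4.82e-06).

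**Figure D3:**
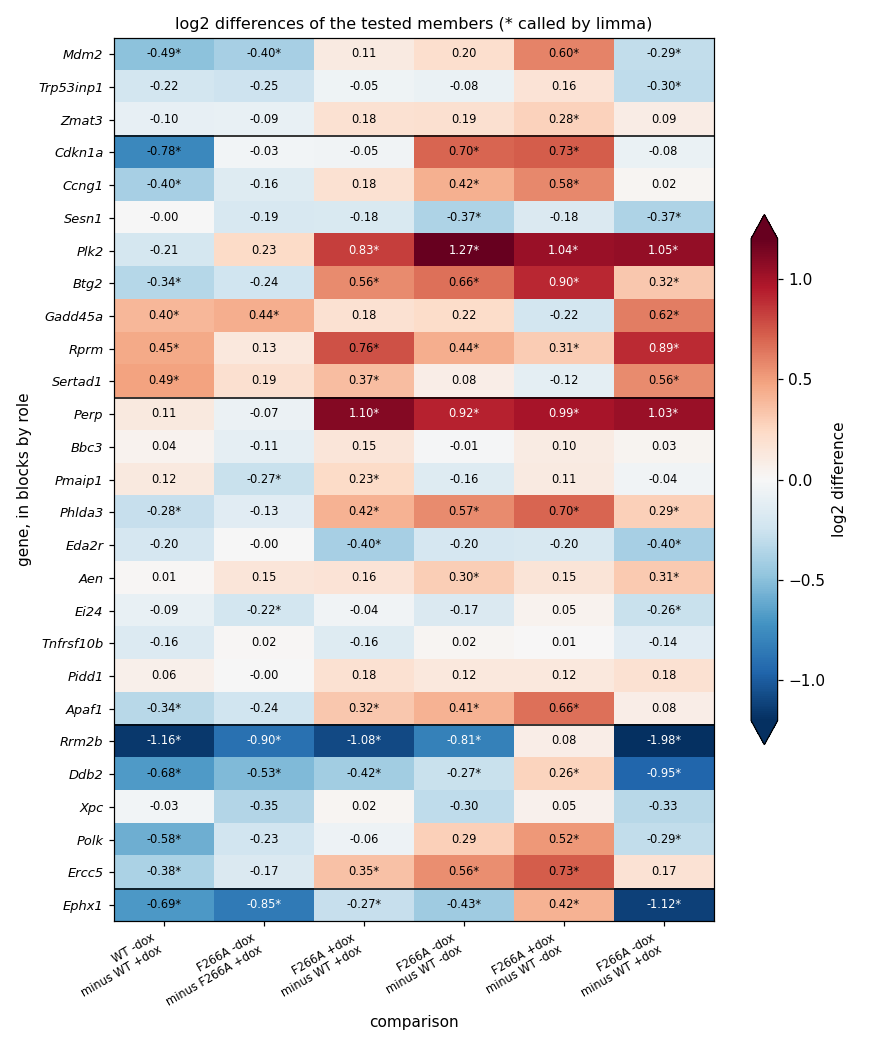
Log2 differences of the 27 tested members in the 6 pairwise comparisons, with the members in blocks by role (feedback, arrest, death, repair and nucleotide supply, metabolic), red for higher and blue for lower, and an asterisk for a limma adjusted p under 0.05. The fifth column, F266A +dox minus WT -dox, has 14 asterisks, all on red, and the last has -1.98 for Rrm2b.

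The members could also be ordered by which group stood outside all other arrays. In 10 of the 27 members both WT -dox arrays were below the other 6, Mdm2, Cdkn1a, Ccng1, Phlda3, Zmat3, Plk2, Btg2, Polk, Apaf1 and Ercc5, while 7.06% of all genes had this pattern. The margin was narrow for Plk2 (9.70 against 9.74) and Zmat3 (10.15 against 10.18), and withdrawal of WT was not called for either. In the dimmer Mdm2 probe set the first F266A -dox array, at 8.07, was below both WT -dox arrays, at 8.14 and 8.08. In 6 members, Ccng1, Pmaip1, Phlda3, Btg2, Apaf1 and Ercc5, both F266A +dox arrays were above the other 6, against 3.48% of all genes. For Ccng1, Btg2 and Apaf1 this held for the average of the probe sets. In the brightest Ccng1 probe set and the dimmer ones of Btg2 and Apaf1, an F266A -dox array was above at least 1 F266A +dox array. No member had both F266A +dox arrays below the other 6 (0 of 27, against 3.74% of all genes) or both WT -dox arrays above them (0 of 27, against 8.38%). Both WT +dox arrays were on top in 6 members (Rrm2b, Eda2r, Ei24, Tnfrsf10b, Ddb2 and Ephx1) against 19.6% of genes and at the bottom in 3 (Gadd45a, Rprm and Sertad1) against 21.4%. Tnfrsf10b passed the minimum only through its first WT +dox array, so its place on top follows in part from the filter. Its second WT +dox array, at 5.467, was barely above the first WT -dox array, at 5.466. Both F266A -dox arrays were at the bottom in 6 members (Trp53inp1, Rrm2b, Sesn1, Ei24, Ddb2 and Ephx1) against 18.6% and on top in 4 (Aen, Plk2, Gadd45a and Sertad1) against 17.3%. For Trp53inp1 this held for the average of its probe sets, while the brighter one was lowest in WT -dox. These counts describe the members and carry no test.

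The withdrawal responses of the lines use separate arrays and can be set side by side. Rrm2b, Ddb2, Ephx1 and Mdm2 were called lower and Gadd45a higher in each line. Cdkn1a, Ccng1, Polk, Ercc5, Apaf1, Btg2 and Phlda3 were called lower, and Rprm and Sertad1 higher, in WT alone. For 3 of them this depended on averaging probe sets. With the brightest probe set, Btg2 (-0.42, limma adjusted p = 0.0157) and Apaf1 (-0.295, limma adjusted p = 0.0459) were also called lower in F266A. So was 1 Ccng1 probe set on its own (-0.27, limma adjusted p = 0.0498). Pmaip1 and Ei24 were called lower in F266A alone. Of the 8 fits that left out 1 array, the Pmaip1 call was made in 4 and the Ei24 call in 0, and the Ei24 call was made in 4 of 11 alternatives of method. Of these, a difference between the lines passed the interaction test only for Cdkn1a. For Pmaip1 the interaction was -0.39 ± 0.10 (limma adjusted p = 0.0674), and it was called with a minimum of 100, with the trended prior and with a crossed replicate block added after seeing the data (limma adjusted p = 0.0366).

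**Figure D4:**
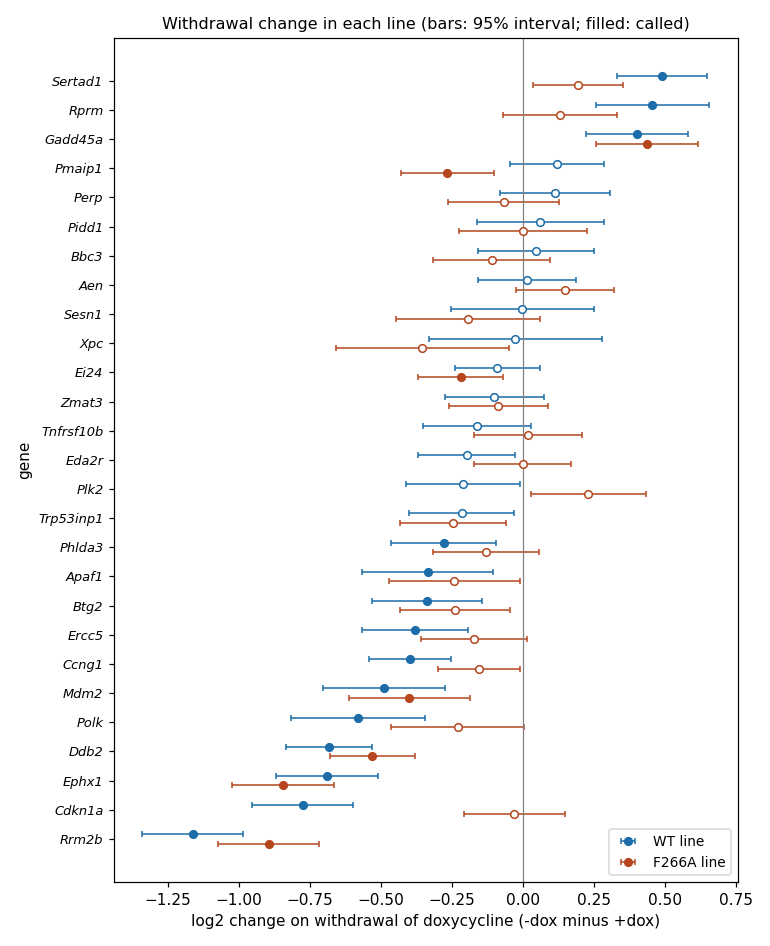
Log2 change on withdrawal of doxycycline (-dox minus +dox) of the 27 tested members in the WT line (blue) and the F266A line (orange), with 95% intervals from limma and filled points for an adjusted p under 0.05. The pair of points lies far apart for Cdkn1a, at -0.78 and -0.03, and close together for Gadd45a, at 0.40 and 0.44.

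Other genes of the pathway were counted from lists of regulators, further targets and apoptosis machinery. Of 26 regulators and cofactors of p53, 24 were tested, with 1 called higher and 1 lower on withdrawal of WT, Sirt1 and Mdm4, or 4.17% in each direction where 16.1% and 15.4% of all genes were called. In F266A +dox against WT +dox 6 were higher (25%) and 2 lower (8.33%), against 15.9% and 12.5% of all genes. Sirt1, a deacetylase of p53, was higher in WT -dox than in WT +dox (0.35 ± 0.077, limma adjusted p = 0.00727). Mdm4, the MDM2 relative that blocks the activation domain of p53, was highest in WT +dox, at 7.67 and 7.46, against 7.27 and 7.26 after WT withdrawal, 7.25 and 7.24 in the induced F266A cells and 7.03 and 7.13 after F266A withdrawal. In F266A +dox it was lower than in WT +dox (-0.32 ± 0.081, limma adjusted p = 0.0168). The p53 relative Trp73 was higher in F266A than in WT with doxycycline (0.60 ± 0.082, limma adjusted p = 0.000698). Cdkn2a, whose ARF product inhibits MDM2, was also called higher there (limma adjusted p = 0.00566), but its WT +dox arrays stood at 5.66 and 5.39, around the minimum, against 6.04 and 6.16 in F266A +dox.

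Of 30 further target genes 26 were tested. On withdrawal of WT, 3 were higher (11.5%) and 5 lower (19.2%), against 16.1% and 15.4% of all genes. In F266A +dox against WT -dox 6 were higher (23.1%) and none lower, against 9.09% and 4.41% of all genes, with a median difference of 0.15 against -0.0055 over all genes. The largest changes were those of Igfbp3, a secreted binder of insulin-like growth factors, which stood at 6.90 and 6.17 with WT induced, at 7.75 and 7.94 with WT withdrawn, at 8.77 and 8.61 with F266A induced and at 9.95 and 10.09 with F266A withdrawn. The 4 groups did not overlap, with WT +dox lowest and F266A -dox highest. From WT +dox to F266A -dox the difference was 3.49 ± 0.19 (limma adjusted p = 1.03e-06). Tap1, the peptide transporter of antigen presentation, was higher in the F266A line with doxycycline (0.90 ± 0.14, limma adjusted p = 0.00141) and without it (0.97 ± 0.14, limma adjusted p = 0.00102). Ninj1, a membrane protein that ruptures dying cells, fell in WT on withdrawal (-0.40 ± 0.064, limma adjusted p = 0.00149) and had an interaction of 0.40 ± 0.090 (limma adjusted p = 0.0375), the only one called in the 3 lists.

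Of 23 genes of the apoptosis machinery 20 were tested. On withdrawal in WT 4 were higher (20%) and 1 lower (5%), against 16.1% and 15.4% of all genes. In F266A 3 were higher (15%) and none lower, against 8.94% and 10.6%. Casp8, the initiator caspase of death receptors, measured 5.51 and 5.29 in the induced WT cells, 5.98 and 5.94 after WT withdrawal, 6.29 and 6.26 in the induced F266A cells and 6.46 and 6.58 after F266A withdrawal. Its WT +dox arrays were under the minimum and the groups did not overlap. Between groups above the minimum, it was higher in F266A -dox than in WT -dox (0.55 ± 0.085, limma adjusted p = 0.00135). Cycs, cytochrome c, was higher in F266A -dox than in F266A +dox (0.47 ± 0.068, limma adjusted p = 0.00245). Bok, a relative of BAX, rose on withdrawal of WT (0.60 ± 0.082, limma adjusted p = 0.000687). Genes that restrain apoptosis were called higher too. Bcl2 was higher in F266A -dox than in WT -dox (0.51 ± 0.11, limma adjusted p = 0.0064). Bcl2l1 was higher in F266A +dox than in WT +dox (0.32 ± 0.089, limma adjusted p = 0.0248), and Birc5 rose on withdrawal of WT (0.21 ± 0.067, limma adjusted p = 0.0375).

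Calls on small differences depended on the array left out. Of the member calls, 9 of 13 for F266A +dox against WT +dox, 10 of 14 for withdrawal of WT, 4 of 7 for withdrawal of F266A, 10 of 14 between the lines without doxycycline, 9 of 14 for F266A +dox against WT -dox and 9 of 17 for F266A -dox against WT +dox were made under all alternatives of method and with any 1 array left out, the 2-fold size threshold aside. The interaction of Cdkn1a was made under all of them. With 2 arrays in a group, their number limits the precision, and the p-values measure the spread between these arrays. Of the 11 members with several passing probe sets, opposite signs occurred in 13 of 77 member comparisons, and only in Aen were the probe sets 0.5 or more apart.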

How the data were processed

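Total RNA of 8 ESC cultures was measured on Affymetrix mouse expression arrays. The authors normalized the arrays by RMA (justRMA, R 2.11.1 per the labels), and deposited 1 log2 value per array for each of 45101 probe sets, to which no further normalization was applied here. Of these, 64 were controls, 34945 had 1 gene symbol in the platform annotation, 932 several and 9160 none, and names come from that annotation. As in the study's methods, probe sets whose linear value exceeded 50 in any array were kept and averaged per gene, which left 11940 genes. Group and replicate number of each array come from its label. The study's SAM was not used here; limma 3.58.1 in R 4.3.3 was fitted to all 8 arrays with 4 group means and no block, with Benjamini-Hochberg adjustment over all genes (4 residual and 5.32 prior degrees of freedom), and was tested on simulated data. Correlations over probe sets were 0.9969 to 0.9977 between duplicates and 0.9853 to 0.9958 between groups, and no duplicates were identical. Arrays give no read counts, so precision rests on their number.

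The members and the gene lists were chosen with earlier results of these data known, so no list was tested as a set. Every member may be named, with the 8 values for Mdm2, Cdkn1a and each member called with an absolute log2 difference of at least 0.5. Up to 4 called genes of the largest difference are named from each of the other lists. Alternatives were no expression filter, a minimum of 100, the brightest probe set, each probe set alone, quantile normalization, median centring, the compared groups alone, the replicate block, a trended and robust prior, a SAM-type statistic, a 2-fold threshold and each array left out. Promoters are RefSeq windows of GRCm38.p6.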

Additional observations from a re-analysis of the deposited data

Results flagged for a closer look

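Withdrawal of doxycycline changed Cdkn1a differently in the lines. The log2 difference was -0.78 in the WT line and -0.03 in the F266A line, and the test of the difference between them gave 0.75 (limma adjusted p = 0.008). Both probe sets of the gene showed it, at 0.73 and 0.77. It was called under all alternatives of method that give an interaction and with any 1 array left out, other than the 2-fold size threshold, which it does not reach. Each line is 1 infected population, so the mutation and the line cannot be told apart here.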

How the results depend on the processing

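No member comparison changed direction under any alternative where it was called. When each probe set was taken alone, a gene was represented by the one with its lowest adjusted p. Single probe sets could still differ. For Aen, called higher in F266A -dox than in WT +dox and WT -dox, the lowest probe set gave -0.18 and -0.04. Requiring at least 2-fold left 2 members for F266A +dox minus WT +dox, 1 for WT -dox minus WT +dox, 0 for F266A -dox minus F266A +dox, 1 for F266A -dox minus WT -dox, 1 for F266A +dox minus WT -dox, 4 for F266A -dox minus WT +dox and 0 for the interaction, since most called differences are smaller. The trended and robust prior gave 12 for F266A -dox minus F266A +dox and 4 for the interaction (Cdkn1a, Ccng1, Pmaip1 and Plk2), and a minimum of 100 gave 2 for the interaction (Cdkn1a and Pmaip1). The cause was not tested. Leaving out 1 array gave 9 to 14 for F266A +dox minus WT -dox, 4 to 7 for F266A -dox minus F266A +dox and 11 to 17 for F266A -dox minus WT +dox, where fewer arrays are fitted. The SAM-type statistic and the fit of the compared groups alone give no interaction.

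Equal replicate numbers did not vary together across all 4 groups: their deviations correlated at 0.13 and 0.16 within the lines and at -0.18 to -0.11 between them. Whether replicates were paired within a line, with numbers exchanged between the lines, was not tested. With the replicate block the counts were 11 for F266A +dox minus WT +dox, 14 for WT -dox minus WT +dox, 6 for F266A -dox minus F266A +dox, 14 for F266A -dox minus WT -dox, 11 for F266A +dox minus WT -dox, 16 for F266A -dox minus WT +dox and 1 for the interaction. A block with the numbers of the F266A arrays exchanged, added after seeing the data, gave 13, 15, 8, 16, 14, 18 and 2 in the same order. The precision rests on 2 arrays a group, with a median SE of 0.080 over all genes.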
